A study of Homo sapiens with 18 samples.

Results

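The NF-kB system was followed through 10 genes of the 25343 human genes in the deposited tables. They were chosen by name, as the rows whose Entrez gene ID maps to RELA, RELB, NFKB1, NFKB2, NFKBIA, NFKBIE, TNFAIP3, BIRC3, CXCL8 and IER3. Earlier results of these data were known when the list was chosen. All 10 were found, 9 passed the filter on low counts, and CXCL8 did not. RELB and NFKBIA rose in HCT116 tumours after 10 mg/kg of DS55980254, known from the literature as an inhibitor of the phosphatidylserine synthase PTDSS1, and BIRC3 rose after 30 mg/kg. HCT116 is an established human colon cancer line. Every tumour, controls included, was a mouse xenograft of HCT116 cells with PTDSS2, the other phosphatidylserine synthase, knocked out, so the design holds no tumour with PTDSS2. Groups were vehicle (0.5% methylcellulose by mouth), 10 mg/kg and 30 mg/kg of DS55980254 by mouth in that vehicle, with 6 tumour libraries each, and tumours were taken 24 hours after dosing. The sources used here do not give the mouse strain, whether the knockout line is 1 clone, or whether each tumour came from its own mouse, so p-values measure the spread between these libraries, which may be technical.

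NF-kB transcription factors are dimers of RELA, RELB, REL and the products of NFKB1 and NFKB2. In the canonical branch, cytokine receptors activate the IkB kinase complex, the inhibitors encoded by NFKBIA and NFKBIE are degraded, and dimers such as that of RELA with the NFKB1 product enter the nucleus. In the non-canonical branch, the kinase encoded by MAP3K14 drives processing of the NFKB2 product, which pairs with RELB. Several genes of the system are themselves induced by it, NFKBIA and TNFAIP3 as negative feedback, BIRC3 as an inhibitor of cell death, CXCL8 as a neutrophil chemokine and IER3 as a stress response gene. In intestinal epithelium the system is known for its part in inflammation and cell survival.

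Total human counts ran from 3435435 to 8538793 in 17 libraries and were 433989 in 10 mg/kg replicate 2. That library also stood apart in its profile, with a mean correlation of 0.784 with the other libraries, against 0.955 to 0.973 for the remaining 17. Genes of the olfactory receptor families other than 51 and 52 averaged 4.41 CPM per kb in it. CPM are counts scaled for library size, with TMM factors for the genes described here. The olfactory level and the counting limit given for CXCL8 were scaled by the plain total. In the other 17 libraries the olfactory level ran from 0.101 to 1.17 CPM per kb. Of 8 epithelial markers, 7 were at 100.3 CPM or more in every library, KRT8 at a median of 2705 CPM and EPCAM at 379 CPM, and the villus gene VIL1 was near 0, at a median of 0.244 CPM. For 10 mg/kg against vehicle, each of the 9 genes tested is given with and without replicate 2.

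Promoter sequences show where the consensus bound by NF-kB, the kappa B motif, lies beside NFKBIA and BIRC3, which rose, NFKB2, a subunit gene, and TNFAIP3, which did not pass the test. Sequences from 250 bases before to 50 bases after an annotated start came from RefSeq on GRCh38.p14, where 7 of the 10 genes matched by symbol, with 11 starts. RELB, NFKBIE and IER3 were not searched. The 10-base motif was GGGRNWYYCC, where R is A or G, N any base, W is A or T and Y is C or T. It was searched on both strands, with overlapping matches kept. It was present beside 6 of the 11 starts, belonging to 5 genes, and in 5.91% of the 35116 promoters of the same length in the RefSeq table, where 0.738% held more than 1 match. A match is a match of letters and was not tied to any binding measurement. Capitals below mark the motif.
NFKBIA (chr14:35404700-35404999, minus strand): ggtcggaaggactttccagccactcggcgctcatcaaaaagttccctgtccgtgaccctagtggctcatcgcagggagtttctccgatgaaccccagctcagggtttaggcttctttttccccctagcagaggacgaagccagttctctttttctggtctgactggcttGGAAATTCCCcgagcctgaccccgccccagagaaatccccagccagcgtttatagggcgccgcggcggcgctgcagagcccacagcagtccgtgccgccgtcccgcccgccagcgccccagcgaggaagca
BIRC3 (chr11:102317234-102317533, plus strand): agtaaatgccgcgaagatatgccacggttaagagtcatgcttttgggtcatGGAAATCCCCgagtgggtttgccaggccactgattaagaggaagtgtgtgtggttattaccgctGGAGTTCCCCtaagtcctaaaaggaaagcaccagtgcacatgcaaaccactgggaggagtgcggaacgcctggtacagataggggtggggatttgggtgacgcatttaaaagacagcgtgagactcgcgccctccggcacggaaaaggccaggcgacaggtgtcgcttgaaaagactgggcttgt
TNFAIP3 (chr6:137867009-137867308, plus strand): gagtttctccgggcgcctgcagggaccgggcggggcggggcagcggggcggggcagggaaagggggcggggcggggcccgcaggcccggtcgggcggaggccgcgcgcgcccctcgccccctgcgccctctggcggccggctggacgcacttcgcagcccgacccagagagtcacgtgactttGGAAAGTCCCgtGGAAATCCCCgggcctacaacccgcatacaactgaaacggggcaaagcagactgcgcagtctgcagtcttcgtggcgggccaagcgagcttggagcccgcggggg
NFKB2 (chr10:102394328-102394627, plus strand, the second of 3 starts): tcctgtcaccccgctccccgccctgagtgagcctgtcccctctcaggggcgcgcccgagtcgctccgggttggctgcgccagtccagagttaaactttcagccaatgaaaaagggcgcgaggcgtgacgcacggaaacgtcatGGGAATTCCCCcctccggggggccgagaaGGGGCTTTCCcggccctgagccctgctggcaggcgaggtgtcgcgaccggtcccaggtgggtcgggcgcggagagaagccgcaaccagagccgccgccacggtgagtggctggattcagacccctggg

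Counted from the start, with negative positions before it, NFKBIA carried 1 match beginning at -81, and BIRC3 carried 2 beginning at -199 and -135. TNFAIP3 carried 2 matches, beginning at -67 and -55. The second start of NFKB2 held 3 matches, 2 of which overlap by all but 1 base, and the third held 2. NFKB1 held GGGAATTTCC beginning at -49 from the first of its starts. The motif had no match in the windows of RELA or CXCL8. However, the CXCL8 window holds tggaatttcc, and that of NFKBIA also holds aggactttcc, each off the motif in its first base only. Such near matches were not counted, so a window with no match may still hold a site that NF-kB binds.

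Per transcript length the 10 genes covered a wide range. With vehicle, IER3 had the highest level, with a median of 925 TPM (838 to 1154 over 6 libraries). NFKB2 followed at 74.7 TPM, RELA at 65.7 and NFKBIA at 48.2 TPM, with overlapping ranges from each of these to the next. NFKB1 stood at 22.4 TPM, apart from NFKBIA, and its range overlapped that of RELB at 13.8 TPM, which in turn overlapped that of NFKBIE at 9.66 TPM. BIRC3 and TNFAIP3 were close to each other at 5.15 and 5.13 TPM. CXCL8 was lowest, at 0.145 TPM.

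**Figure D1:**
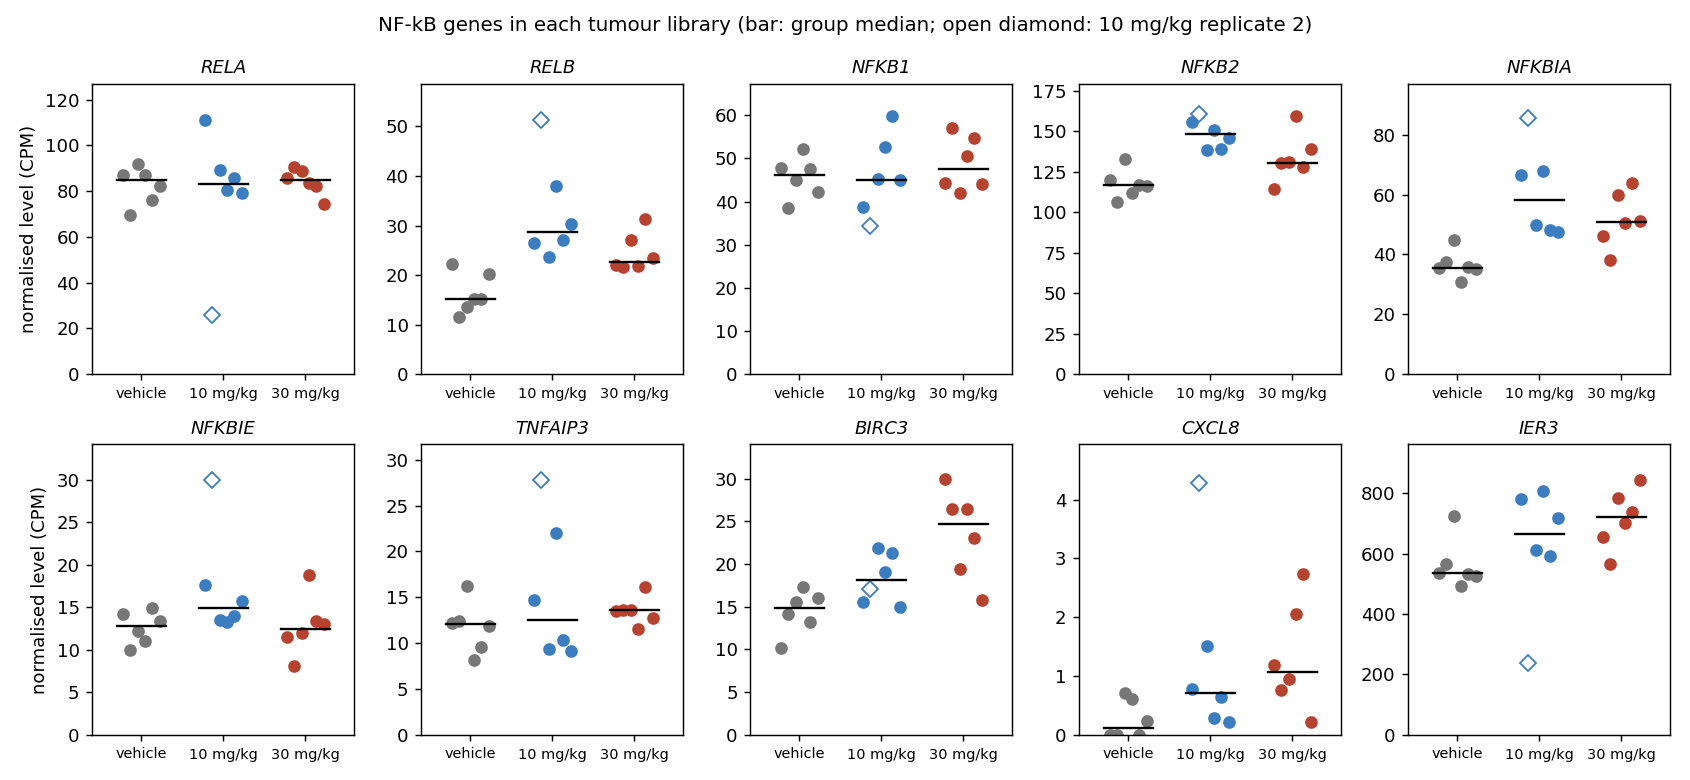
Normalised level (CPM, linear axis) of each of the 10 genes in every tumour library, by dose, with vehicle at the left; a bar marks the group median and the open diamond is 10 mg/kg replicate 2. RELB, NFKB2 and NFKBIA after 10 mg/kg lie above all vehicle libraries, while RELA and NFKB1 overlap throughout.

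After 10 mg/kg, 2 of the 9 genes tested rose, RELB and NFKBIA, and 0 fell, where 0.419% of the 14074 genes tested were called higher and 0.469% in either direction. At an unadjusted p under 0.05, 4 of the 9 were higher and 0 lower, where 9.5% of all genes passed in either direction. Without 10 mg/kg replicate 2 the same 2 genes passed, with 0.742% of all genes called higher and 0.855% in either direction. After 30 mg/kg 1 of the 9 rose, BIRC3, where 0.568% of all genes were called higher and 0.618% in either direction. Without that library BIRC3 was again the 1 gene of the 9 that passed, where 0.983% were called higher and 1.29% in either direction. The test was edgeR's quasi-likelihood test over all genes with Benjamini-Hochberg adjustment at 0.05. Both dose comparisons use the same vehicle libraries. The median log2 fold change of the 9 genes was 0.33 after 10 mg/kg and 0.21 after 30 mg/kg, beside -0.01 and -0.00 for all genes. In these bulk samples, a change in RNA per cell and a change in the share of cells cannot be told apart.

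Among the subunits, RELB (Entrez gene 5971, chromosome 19), the partner of processed NFKB2 in the non-canonical branch, showed the largest log2 fold change of the 9 after 10 mg/kg. RELB with vehicle ran from 11.6 to 22.1 CPM, median 15.2. After 10 mg/kg it ran from 23.6 to 51.3 CPM, median 28.7, and after 30 mg/kg from 21.7 to 31.2 CPM, median 22.7. All 6 libraries after 10 mg/kg were above all 6 vehicle libraries, and the 30 mg/kg range began just below the highest vehicle value. The log2 fold change was 0.91 after 10 mg/kg (SE 0.18, 95% interval 0.54 to 1.28, edgeR adjusted p = 0.0149), a 1.88-fold level. Without 10 mg/kg replicate 2 it was 0.83 (edgeR adjusted p = 0.00714). For 30 mg/kg it was 0.58 (SE 0.17, 95% interval 0.23 to 0.94) and did not pass (edgeR adjusted p = 0.198, and 0.0633 without that library). For 30 against 10 mg/kg the RELB difference was -0.32, with an interval of -0.68 to 0.03 (edgeR adjusted p = 0.969), and it was -0.25 without 10 mg/kg replicate 2. The call after 10 mg/kg ended without vehicle replicate 5 (adjusted p = 0.0505) and when the fit held the 10 mg/kg and vehicle groups alone (adjusted p = 0.055). It also ended with the replicate number as a block in the fit (edgeR adjusted p = 0.0853).

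NFKB2 (Entrez gene 4791, chromosome 10), which encodes the precursor processed in the non-canonical branch, was at 107 to 133 CPM with vehicle, median 117. It was at 138 to 160.4 CPM after 10 mg/kg, median 148, and at 115 to 159.5 CPM after 30 mg/kg, median 130.5. In CPM the 10 mg/kg libraries again lay above all vehicle libraries. In TPM, 10 mg/kg replicate 2, with 75 counts, was at 65.5, below the vehicle range of 68.3 to 80.3. The other libraries of that dose were at 89.2 TPM or more. The size was small, a log2 fold change of 0.33 (SE 0.09), and it missed the threshold over all genes (edgeR adjusted p = 0.162, and 0.0918 without 10 mg/kg replicate 2). DESeq2 (adjusted p = 0.0192) and limma-voom with sample weights (adjusted p = 0.0342) called it. For 30 mg/kg the log2 fold change was 0.19 (edgeR adjusted p = 0.635, and 0.38 without that library).

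RELA (Entrez gene 5970, chromosome 11), the main activating subunit of the canonical branch, did not pass at either dose. It stood at a median of 84.7 CPM with vehicle, 83.1 CPM after 10 mg/kg and 84.8 CPM after 30 mg/kg. The log2 fold changes were 0.02 after 10 mg/kg (95% interval -0.29 to 0.32) and 0.03 after 30 mg/kg (95% interval -0.27 to 0.34). In 10 mg/kg replicate 2 RELA had 12 counts, 25.7 CPM, while no other library of that dose was below 79.4 CPM. Without that library the 10 mg/kg difference was 0.12 (edgeR adjusted p = 0.763).

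NFKB1 (Entrez gene 4790, chromosome 4), whose precursor gives the common partner of RELA, had medians of 46.2 CPM with vehicle, 45.1 CPM after 10 mg/kg and 47.4 CPM after 30 mg/kg. Its log2 fold changes were 0.05 (95% interval -0.20 to 0.31) and 0.10 (95% interval -0.15 to 0.35), and the first was 0.09 without 10 mg/kg replicate 2. The intervals of RELA and NFKB1 leave out a change of 1.5-fold at either dose.

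NFKBIA (Entrez gene 4792, chromosome 14), the inhibitor that holds RELA dimers in the cytoplasm, followed RELB in size after 10 mg/kg. NFKBIA with vehicle ran from 30.7 to 44.7 CPM, median 35.6. After 10 mg/kg it ran from 47.4 to 85.6 CPM, median 58.2, and after 30 mg/kg from 38.1 to 63.8 CPM, median 50.9. The 10 mg/kg libraries did not overlap those of vehicle, and 5 of the 6 libraries after 30 mg/kg were above the highest vehicle library. After 10 mg/kg the log2 fold change was 0.67 (SE 0.15, 95% interval 0.37 to 0.98, edgeR adjusted p = 0.0304), and 0.61 without 10 mg/kg replicate 2 (edgeR adjusted p = 0.023). The 30 mg/kg value was 0.50 (SE 0.14, 95% interval 0.20 to 0.79, edgeR adjusted p = 0.163, and 0.0569 without that library). Limma-voom with sample weights (adjusted p = 0.0407) and the fit of the 30 mg/kg and vehicle groups alone (edgeR adjusted p = 0.0475) called this difference. The 10 mg/kg call ended without vehicle replicate 1, 2, 4, 5 or 6 or 10 mg/kg replicate 1 or 4, with adjusted p from 0.0692 to 0.118. It also ended with no filter on low counts (0.0674), in the fit of the 10 mg/kg and vehicle groups alone (0.055) and on the authors' TPM (limma-trend adjusted p = 0.0933). With the replicate number as a block it ended too (edgeR adjusted p = 0.143).

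In CPM, 3 of the 9 genes, RELB, NFKB2 and NFKBIA, had 10 mg/kg libraries entirely above the vehicle libraries, where 0.689% of all genes did (1.31% without 10 mg/kg replicate 2, with the same 3 genes). With 30 mg/kg 0 of the 9 did, where 1.25% of all genes did. In TPM the 10 mg/kg libraries of NFKB2 lay above those of vehicle only without 10 mg/kg replicate 2.

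NFKBIE (Entrez gene 4794), which encodes another IkB inhibitor, and TNFAIP3 (Entrez gene 7128), a ubiquitin-editing enzyme that ends NF-kB signalling, did not pass at either dose. Both genes lie on chromosome 6. NFKBIE had medians of 12.8 CPM with vehicle, 14.9 CPM after 10 mg/kg and 12.5 CPM after 30 mg/kg. Its log2 fold change was 0.33 after 10 mg/kg (95% interval -0.08 to 0.73, edgeR adjusted p = 0.626) and 0.02 after 30 mg/kg (95% interval -0.38 to 0.41). The highest value, 29.9 CPM, was 14 counts in 10 mg/kg replicate 2, without which the 10 mg/kg value was 0.24 (edgeR adjusted p = 0.726). TNFAIP3 had medians of 12.0 CPM with vehicle, 12.5 CPM after 10 mg/kg and 13.6 CPM after 30 mg/kg, and its log2 fold changes were 0.24 (95% interval -0.24 to 0.72) and 0.21 (95% interval -0.25 to 0.67). It was uneven after 10 mg/kg, with 27.8 CPM in replicate 2 and 22.0 CPM in replicate 4 and 9.17 to 14.7 CPM in the other 4 libraries. Without replicate 2 its 10 mg/kg value was 0.14 (edgeR adjusted p = 0.895). With both of these libraries and 30 mg/kg replicate 5 left out, it was -0.11 (edgeR adjusted p = 0.944). The TNFAIP3 locus overlaps that of WAKMAR2, another gene in the tables, and reads from overlapping genes may not be told apart.

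Among the targets, BIRC3 (Entrez gene 330, chromosome 11), an inhibitor of apoptosis protein that ubiquitinates signalling partners of the TNF receptor, had its highest median at the upper dose. BIRC3 with vehicle ran from 10.2 to 17.3 CPM, median 14.8. After 10 mg/kg it ran from 14.9 to 21.9 CPM, median 18.1, and after 30 mg/kg from 15.8 to 29.9 CPM, median 24.7. Of the 30 mg/kg libraries, 5 of 6 were above the highest vehicle library, and replicate 6 was within the vehicle range. The log2 fold change after 30 mg/kg was 0.71 (SE 0.17, 95% interval 0.37 to 1.05, edgeR adjusted p = 0.0415), a 1.64-fold level, and it was again 0.71 without 10 mg/kg replicate 2 (edgeR adjusted p = 0.0223). The 10 mg/kg value was 0.36 (SE 0.17, 95% interval 0.0032 to 0.72, edgeR adjusted p = 0.52, and 0.492 without that library). For 30 against 10 mg/kg BIRC3 differed by 0.35, with an interval of 0.0047 to 0.70 and an edgeR adjusted p of 0.969. The 30 mg/kg call ended without vehicle replicate 1, 2, 3, 5 or 6, 10 mg/kg replicate 4, or 30 mg/kg replicate 1, 2, 4 or 5, with adjusted p from 0.0504 to 0.149. It also ended with no filter on low counts (adjusted p = 0.108) and on the authors' TPM, where the difference on the log2(TPM + 1) scale was 0.47 (limma-trend adjusted p = 0.794). With the replicate number as a block it ended too (edgeR adjusted p = 0.1435).

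IER3 (Entrez gene 8870, chromosome 6), a short stress-induced gene that modulates survival signalling, had medians of 534 CPM with vehicle, 665 CPM after 10 mg/kg and 719 CPM after 30 mg/kg. Its ranges overlapped between all groups. Replicate 2 after 10 mg/kg had 237 CPM, the lowest of all 18 libraries, while the others of that dose had 593 to 807 CPM. The log2 fold change after 10 mg/kg was 0.16 (edgeR adjusted p = 0.813), and 0.32 without that library (edgeR adjusted p = 0.243). After 30 mg/kg it was 0.34 (95% interval -0.04 to 0.73, edgeR adjusted p = 0.719, and 0.13 without that library).

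CXCL8 (Entrez gene 3576, chromosome 4), the neutrophil chemokine, was close to the limit of detection. It had 0 to 3 counts per library with vehicle, 1 to 7 after 10 mg/kg and 1 to 10 after 30 mg/kg. The counts summed to 7 with vehicle, 17 after 10 mg/kg and 36 after 30 mg/kg over 6 libraries each. Medians were 0.121 CPM with vehicle, 0.711 CPM after 10 mg/kg and 1.08 CPM after 30 mg/kg, and the groups overlapped. In the 3 vehicle libraries with 0 counts, a level of up to 0.633 to 0.744 CPM by the plain total, that of 3 counts, is allowed by counting error alone. CXCL8 alone was tested on log2(CPM + 0.5) by exact permutation of the libraries, two-sided. Against vehicle, 30 mg/kg differed by 1.20 on this scale with an exact p of 0.0152, where the smallest p possible is 0.00216. With 10 mg/kg the difference was 1.00 and the exact permutation p was 0.0519, and 0.0909 without 10 mg/kg replicate 2, whose 2 counts amount to 4.28 CPM. For 30 against 10 mg/kg the exact permutation p was 0.712, and 0.234 without that library. These 3 p-values are not adjusted for one another. In an edgeR fit with no filter, CXCL8 did not pass after 30 mg/kg (adjusted p = 0.723) or 10 mg/kg (adjusted p = 0.347).

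**Figure D2:**
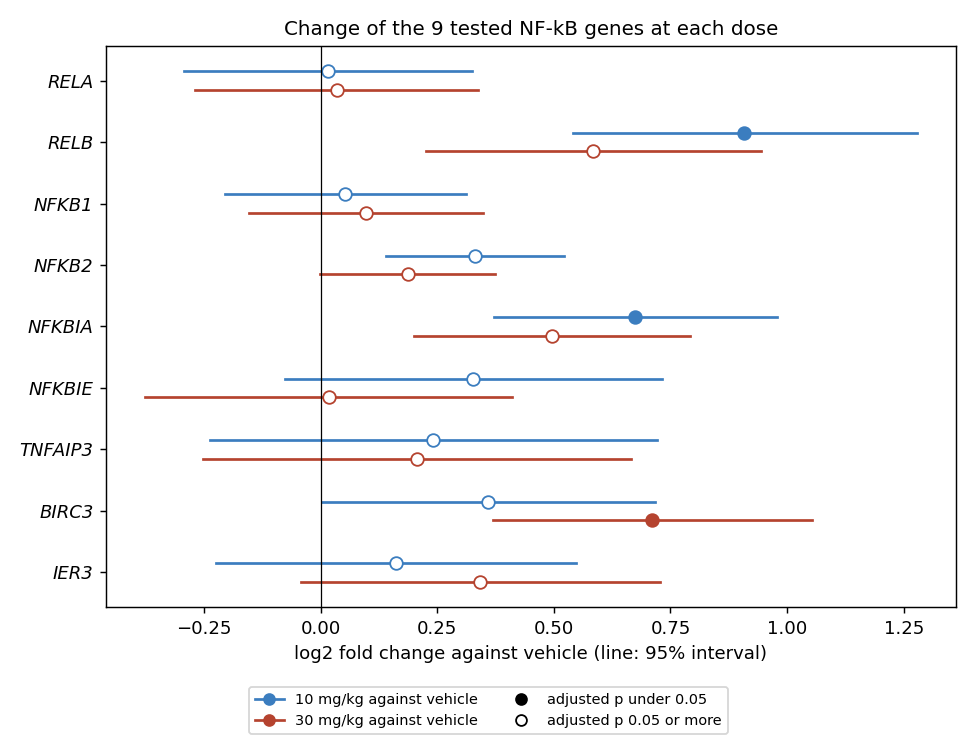
Log2 fold change against vehicle (horizontal axis) of the 9 genes tested at each dose, with 95% intervals from the edgeR fit of 18 libraries, not adjusted for the number of genes. Filled points passed at an adjusted p under 0.05: RELB (0.91) and NFKBIA (0.67) after 10 mg/kg and BIRC3 (0.71) after 30 mg/kg.

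The question of dose was put directly by comparing 30 with 10 mg/kg. By edgeR 0 of the 9 genes differed, as did 0 (0%) of all 14074 genes, and DESeq2, limma-voom with sample weights and limma-trend on TPM also called 0 genes. At an unadjusted p under 0.05 there were 496 genes (3.52%), and of the 9 only BIRC3 was among them. RELB, NFKBIA, NFKB2 and NFKBIE had negative values (-0.32, -0.18, -0.14 and -0.31) and BIRC3 and IER3 positive ones (0.35 and 0.18), each with an adjusted p of 0.969. Intervals reached beyond 1.5-fold for RELB, NFKBIE and BIRC3, so the intervals include a difference of that size between the doses for these 3 genes.

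In CPM, levels of RELB, NFKBIA and TNFAIP3 were high in the 3 libraries with the highest olfactory receptor level. The 3 libraries with the highest olfactory level were 10 mg/kg replicate 2 (4.41 CPM per kb), 10 mg/kg replicate 4 (1.17) and 30 mg/kg replicate 5 (0.758). In them RELB stood at 51.3, 37.9 and 31.2 CPM, and NFKBIA at 85.6, 68.0 and 63.8 CPM, in each case the highest of its dose group or next to replicate 2. This order changed in TPM. After 10 mg/kg, RELB was at 29.4 TPM in replicate 2 and 33.3 in replicate 4. NFKBIA was at 72.1 TPM in replicate 2, 88.1 in replicate 4 and 85.1 in replicate 1. In 30 mg/kg replicate 5, RELB (25.2 TPM) was still the highest of its group, but NFKBIA (75.9 TPM) was below replicate 3 (76.2 TPM). NFKBIA was also high in 10 mg/kg replicate 1, at 66.5 CPM, where the olfactory level was 0.14. Vehicle replicate 1, which had the highest olfactory level of its group (0.24 CPM per kb), also had the highest RELB of its group, 22.1 CPM, but its NFKBIA (35.5 CPM) and TNFAIP3 (12.2 CPM) lay within the range of the other vehicle libraries. Replicate 6 of the 10 mg/kg group had the next olfactory level below the 3 (0.319 CPM per kb) and the lowest NFKBIA (47.4 CPM) and TNFAIP3 (9.17 CPM) of its group. BIRC3 did not follow this order, at 17.1, 19.1 and 23.0 CPM in the same 3 libraries. With these 3 libraries left out together, a setting chosen after seeing the data, RELB after 10 mg/kg was 0.72 (edgeR adjusted p = 0.0262), NFKBIA after 10 mg/kg 0.53 (adjusted p = 0.0663) and BIRC3 after 30 mg/kg 0.72 (adjusted p = 0.0327). With the log2 olfactory level as a covariate, likewise chosen after seeing the data, the values were 0.67 (adjusted p = 0.0446), 0.51 (adjusted p = 0.113) and 0.72 (adjusted p = 0.0289).

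**Figure D3:**
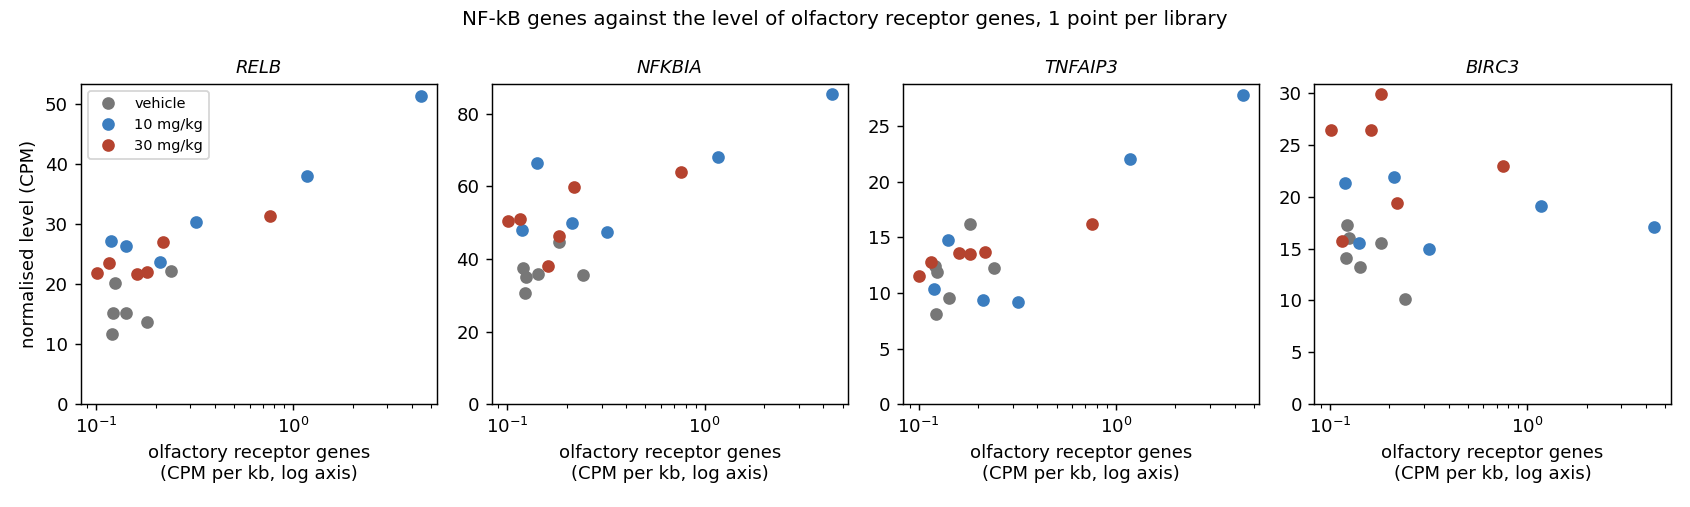
Normalised level (CPM) of RELB, NFKBIA, TNFAIP3 and BIRC3 against the mean level of olfactory receptor genes (CPM per kb, log axis), 1 point per tumour library, coloured by dose. The rightmost point is 10 mg/kg replicate 2 at 4.41 CPM per kb. There RELB (51.3 CPM), NFKBIA (85.6 CPM) and TNFAIP3 (27.8 CPM) are highest of all 18 libraries in CPM and BIRC3 (17.1 CPM) is not. These RELB, NFKBIA and TNFAIP3 values rest on 24, 40 and 13 counts. In TPM each of these genes was higher in 10 mg/kg replicate 4.

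NF-kB genes are also active in leukocytes, whose markers were low in these human counts. The summed level of 10 leukocyte markers was 12.5 to 19.5 CPM with vehicle, 16.0 to 77.0 CPM after 10 mg/kg and 13.1 to 19.2 CPM after 30 mg/kg. The 77.0 CPM were in 10 mg/kg replicate 2, and the other libraries of that dose reached at most 22.6 CPM. TYROBP was at 0 in 15 of the 18 libraries, CD3E in 13 and PTPRC in 9. By contrast, CD68 (median 6.28 CPM), LYZ (4.85), CSF1R (2.46) and ITGAM (1.21) had counts in every library. Sums for 6 endothelial markers were 3.66 to 11.3 CPM with vehicle, 3.45 to 105 CPM after 10 mg/kg and 4.62 to 19.4 CPM after 30 mg/kg, and for 6 fibroblast markers, led by COL1A1, 61.8 to 109, 73.1 to 317 and 69.3 to 92.5 CPM. The highest sums of both lists were again in 10 mg/kg replicate 2, and the other libraries of that dose reached at most 19.4 CPM for endothelium and 106 CPM for fibroblasts. DCN and LUM were at 0 in 13 libraries each, while COL1A1 and COL3A1 had counts in every library. In these xenografts such cells of the host would be mouse cells, so levels of human markers do not measure how many there were. The part of such cells in the NF-kB values was not tested.

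The rest of the pathway was read from 87 further genes, also listed with earlier results of these data known. Of these, 69 passed the filter. By edgeR's adjusted p over all genes, 0 of the 69 passed after 10 mg/kg, after 30 mg/kg or between the doses in the fit of all libraries. DESeq2 and limma-voom with sample weights called LIF and SDC4 at both doses and MAP3K14 after 30 mg/kg, limma-voom also called TNFRSF1A after 30 mg/kg, and limma-trend on TPM called 0. At an unadjusted p under 0.05, 8 were higher and 2 lower after 10 mg/kg, where 9.5% of all genes passed in either direction, and 6 were higher and 1 lower after 30 mg/kg, where 7.9% did. Between the doses 1 was higher and 2 were lower at that level, where 3.52% of all genes passed. Without 10 mg/kg replicate 2, 70 were tested. Their median log2 fold change was then 0.11 after 10 mg/kg and 0.08 after 30 mg/kg, beside -0.01 and -0.00 for all genes. In the fit of all libraries the median was 0.09 after 10 mg/kg, with 51 of 69 above 0, and 0.07 after 30 mg/kg, with 45 of 69 above 0. For all genes 48.8% and 49.8% were above 0. The 18 genes that did not pass the filter include TNF, LTB, IL6, CCL2 and CCL20, ligands and classic targets of the pathway, and of these 18 the highest median was 1.58 CPM, that of CXCL2.

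**Figure D4:**
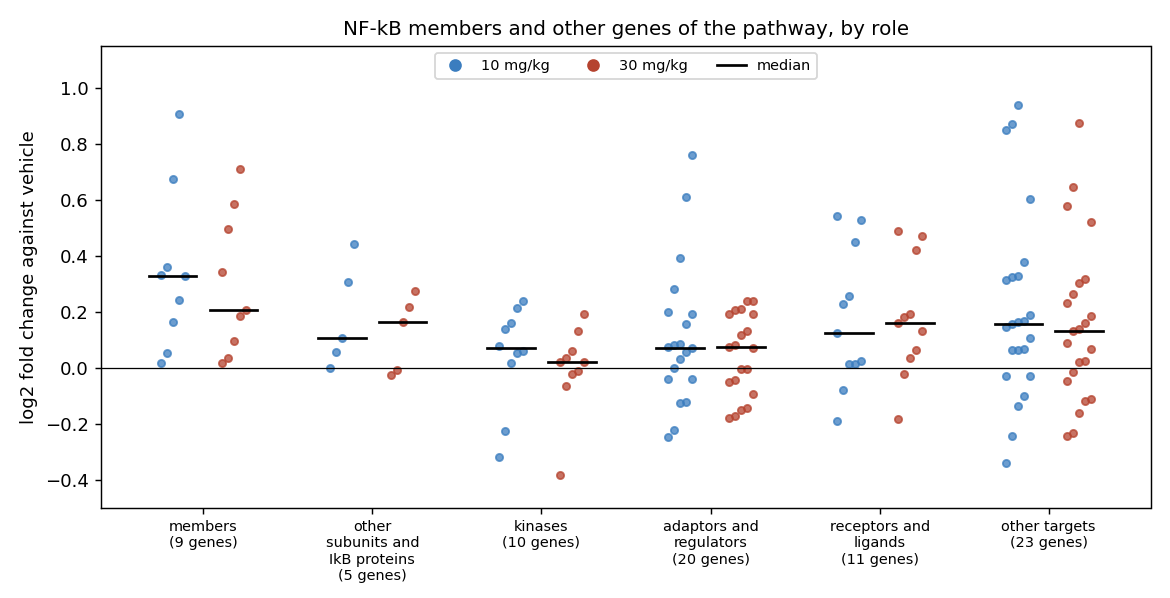
Log2 fold change against vehicle (vertical axis) of the 9 tested NF-kB genes and of 69 further pathway genes by role, 1 point per gene, with 10 mg/kg left and 30 mg/kg right in each pair and a bar at the median. Medians of these 9 were 0.33 and 0.21, and those of the other lists lay between 0.02 and 0.16.

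Further subunits and IkB proteins followed with values that did not pass. BCL3, a nuclear IkB protein, averaged 22.6 ± 3.28 CPM after 10 mg/kg and 17.1 ± 2.28 CPM with vehicle (SD, n = 6 each), a log2 fold change of 0.44 with an edgeR adjusted p of 0.269, and 0.146 without 10 mg/kg replicate 2. NFKBIB, another classical inhibitor, was at 0.31 after 10 mg/kg (edgeR adjusted p = 0.466, and 0.424 without that library). Of the kinases, MAP3K14, which starts the non-canonical branch, averaged 54.7 ± 4.83 CPM with vehicle, 44.0 ± 4.83 CPM after 10 mg/kg and 41.9 ± 4.43 CPM after 30 mg/kg (SD, n = 6 each). Its log2 fold changes were -0.32 after 10 mg/kg and -0.38 after 30 mg/kg (edgeR adjusted p = 0.292 and 0.124, and 0.23 and 0.0647 without that library). IKBKG, the regulatory subunit of the IkB kinase complex, has a near-identical pseudogene that could share its reads, and was at 0.24 after 10 mg/kg (edgeR adjusted p = 0.52, and 0.542 without that library) and -0.07 after 30 mg/kg (edgeR adjusted p = 0.973, and 0.896).

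Among adaptors, ZC3H12A, an RNase that degrades inflammatory transcripts, had a log2 fold change of 0.39 after 10 mg/kg (edgeR adjusted p = 0.391, and 0.381 without 10 mg/kg replicate 2). TRAF1, a receptor adaptor, averaged 9.82 ± 8.0 CPM after 10 mg/kg and 4.67 ± 2.18 CPM with vehicle (SD, n = 6 each). Its log2 fold change was 0.76 (edgeR adjusted p = 0.53), and 0.51 without that library (edgeR adjusted p = 0.63). Of the receptors, TNFRSF1A, the main TNF receptor of epithelial cells, averaged 51.7 ± 6.77 CPM after 30 mg/kg and 38.6 ± 4.51 CPM with vehicle (SD, n = 6 each, log2 fold change 0.42, edgeR adjusted p = 0.189, and 0.0613 without that library). IL1RAP, the shared chain of the IL-1 receptor, was at 0.53 after 10 mg/kg and 0.49 after 30 mg/kg (edgeR adjusted p = 0.546 and 0.687, and 0.559 and 0.466 without that library).

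SDC4, a cell-surface heparan sulphate proteoglycan among the other targets, came nearest to the threshold. It averaged 248 ± 81.6 CPM after 10 mg/kg and 159 ± 21.4 CPM with vehicle (SD, n = 6 each), a log2 fold change of 0.60 (edgeR adjusted p = 0.0772). With 30 mg/kg it averaged 229 ± 13.6 CPM (SD, n = 6), a log2 fold change of 0.52 (edgeR adjusted p = 0.139). Without 10 mg/kg replicate 2 the SDC4 values were 0.45 after 10 mg/kg and 0.52 after 30 mg/kg. SDC4 then passed at both doses (edgeR adjusted p = 0.034 and 0.00496), the 1 gene of the 70 then tested that passed. Of all genes 0.855% passed after 10 mg/kg and 1.29% after 30 mg/kg in that fit. LIF, an IL-6 family cytokine, averaged 211 ± 16.1 CPM after 10 mg/kg and 168 ± 10.9 CPM with vehicle (SD, n = 6 each), and was at 0.33 after 10 mg/kg and 0.30 after 30 mg/kg (edgeR adjusted p = 0.185 and 0.227, and 0.0605 and 0.065 without that library).

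Genes with the most similar pattern were sought among 12555 genes with a mean of at least 5 CPM, by Pearson's correlation of log2 CPM over the 17 libraries other than 10 mg/kg replicate 2. These correlations describe libraries that share the dose groups, so the value within groups, from deviations from the group means, is given beside each. For RELB the nearest were LRCH4 (r = 0.876, rho = 0.75, 0.653 within groups), SOCS1, a cytokine signalling inhibitor (r = 0.857, rho = 0.831, 0.518 within groups), and CNTN2 (r = 0.827, rho = 0.775, 0.779 within groups). For NFKBIA they were the keratin gene KRT6B (r = 0.936, rho = 0.917, 0.86 within groups), SLC25A1, the mitochondrial citrate carrier (r = 0.935, rho = 0.914, 0.859 within groups), and DNAJB2, a co-chaperone (r = 0.914, rho = 0.978, 0.809 within groups). For BIRC3 they were SLC7A11, the cystine importer (r = 0.854, rho = 0.833, 0.663 within groups), the desmosomal cadherin gene DSC2 (r = 0.833, rho = 0.821, 0.649 within groups) and STN1 (r = 0.818, rho = 0.755, 0.729 within groups). Of these neighbours SOCS1 rose at both doses, with log2 fold changes of 0.87 and 0.73 (edgeR adjusted p = 0.000669 and 0.00249 in the fit of all 18 libraries), as did KRT6B, which has near-identical paralogs that could share its reads, with 1.26 and 1.25 (edgeR adjusted p = 0.0127 and 0.00617). Both also passed at both doses without 10 mg/kg replicate 2. DSC2 and SLC7A11, neighbours of BIRC3, rose after 30 mg/kg by 0.57 and 1.04 (edgeR adjusted p = 0.00212 and 0.00126). They missed the threshold after 10 mg/kg with all libraries (edgeR adjusted p = 0.118 and 0.0551) and passed without 10 mg/kg replicate 2 (0.00552 and 0.034). DNAJB2 passed after 10 mg/kg without that library (edgeR adjusted p = 0.0489, and 0.0681 with it). LRCH4, SLC25A1, CNTN2 and STN1 passed at neither dose, with or without that library. Of all genes 0.469% passed after 10 mg/kg and 0.618% after 30 mg/kg, and 0.855% and 1.29% without that library. The neighbours were picked by correlations that include the dose differences of genes that had passed. A rise with dose in them is thus partly built into the choice.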

How the data were processed

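Human gene tables, 1 for each library, were deposited by the authors in RSEM's layout. Per the file headers, they hold expected counts (reads per gene as estimated by the authors, not scaled) and TPM (those counts scaled by the authors for transcript length and library size). Per the labels, libraries were made from 5 ng of total RNA with a stranded pico-input kit. The submitters' processing notes name STAR 2.4.2a, hg19 and mm10. The sources used here do not say how human and mouse reads were separated, whether counting used strand, or which annotation was used. Symbols came from gene IDs (25220 genes) or transcript accessions (26 genes), and 97 genes had none.

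Counts were rounded, filtered by filterByExpr (14074 genes left), scaled by TMM and fitted over all 18 libraries with edgeR 4.0.16 (robust quasi-likelihood) in R 4.3.3. The fit was tested on simulated data, with changes put into genes with a mean above 5 CPM. It called 44.8% of the 1.5-fold changes for 10 mg/kg against vehicle and 47.8% for 30 mg/kg against vehicle. Of the 2-fold changes it called 86.6% and 88.1%. Among the genes left unchanged it called 7 and 5. Apart from the changes put in, all simulated libraries shared the same mean profile. None thus stood apart in profile as 10 mg/kg replicate 2 did, and the rates do not cover such a library. Intervals are at 95%, and limits from counts cover counting error only. The members and pathway lists were chosen with earlier results of these data known. All 10 members are named, with the 2 genes of each pathway list with the smallest unadjusted p at either dose and any that passed, and the 3 genes nearest in pattern to each member that passed. Genes below the filter were named after their values were seen. Alternatives used DESeq2 1.42.0 and limma 3.58.1. Of all library pairs, 0 held identical values.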

Additional observations from a re-analysis of the deposited data

Results flagged for a closer look

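In 30 groups of 6 values (10 genes in 3 groups), 4 had 1 library far from the rest, by a gap to the nearest library above 0.625 of the group's range. By chance about 1 in 20 groups would. RELA at 25.7 CPM, NFKBIE at 29.9 CPM and CXCL8 at 4.28 CPM stood apart in 10 mg/kg replicate 2, where the nearest other libraries of the group had 79.4, 17.6 and 1.52 CPM. These values rest on 12, 14 and 2 counts in the library with the fewest counts. IER3 at 725 CPM stood apart in vehicle replicate 3, where the next vehicle library had 567 CPM.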

How the results depend on the processing

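The number of genes called after 10 mg/kg, 66 in the fit described, was 32 with no filter on low counts, 158 with DESeq2, 12 with limma-trend on log2(TPM + 1), 235 with limma-voom and sample weights and 36 with only the 2 groups compared. After 30 mg/kg, 87 became 57, 179, 23, 315 and 191 in the same order, and 223 without the 3 libraries of highest olfactory level, a setting chosen after seeing the data, as was the olfactory covariate. Of the NF-kB genes, 2 passed after 10 mg/kg. That number was 1 with no filter, on TPM, without the 3 libraries or with the covariate, 0 with only the 2 groups and 3 with DESeq2 or sample weights. After 30 mg/kg, where 1 passed, it was 0 with no filter or on TPM and 2 with sample weights or only the 2 groups. Leaving out 1 library at a time gave 31 to 121 genes and 0 to 2 NF-kB genes after 10 mg/kg, and 61 to 182 genes and 0 to 1 NF-kB gene after 30 mg/kg. Why these counts moved was not tested, except that settings with fewer libraries or other genes tested change the adjustment.

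With the replicate block, 24 genes and 0 NF-kB genes passed after 10 mg/kg, and 60 genes and 0 NF-kB genes after 30 mg/kg. Adjusted p was then 0.0853 for RELB, 0.143 for NFKBIA and 0.143 for BIRC3, and RELA after 10 mg/kg was at -0.027. Same-numbered libraries did not deviate together: their correlations ran from -0.28 to 0.22 and exceeded 0.1 in 3 of 18 pairs, so the numbers were not taken to pair tumours.

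Of 729 log2 fold changes of the 9 genes under the alternatives, 36 had the opposite sign, and in 0 of these had either value passed. After 10 mg/kg, RELA was at -0.039 with no filter and -0.27 on TPM, NFKB1 at -0.00084 and -0.092, IER3 at -0.038 on TPM, and TNFAIP3 at -0.0095 with sample weights, -0.11 without the 3 libraries and -0.076 with the covariate. After 30 mg/kg, NFKBIE was at -0.025 on TPM, -0.049 with sample weights and -0.0037 with the covariate. For 30 against 10 mg/kg, TNFAIP3 was at 0.014 with no filter, and with sample weights, without the 3 libraries and with the covariate it was at 0.24, 0.26 and 0.19, while RELA was at -0.014, -0.11 and -0.066. With 1 library left out, RELA ran from -0.081 to 0.12 after 10 mg/kg, -0.0057 to 0.075 after 30 mg/kg and -0.082 to 0.12 between doses. NFKB1 ran from -0.035 to 0.12 after 10 mg/kg and -0.017 to 0.13 between doses, NFKBIE from -0.11 to 0.12 after 30 mg/kg, and TNFAIP3 from -0.17 to 0.16 between doses.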
